A study of Homo sapiens with 9 samples.

Results

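The genes of the proteasome subunits, named PSMA, PSMB, PSMC or PSMD with a number, were described over 9 expression arrays of human leukemia cell lines. They were found by symbol in the platform's annotation, without the immunoproteasome genes PSMB8, PSMB9 and PSMB10, and only on probe sets that name 1 gene. Of the 12078 genes on such probe sets, 30 are members, out of 36 genes of these names in RefSeq. They comprise 6 genes of the alpha ring, 7 of the beta ring, 5 ATPases of the base, 9 other subunits of the regulatory particle and 3 of its assembly factors. PSMA6, whose probe sets also name PRORP, and PSMA8, PSMB11, PSMC5, PSMD7 and PSMD13 were not analysed here.

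K562 is a leukemia line that can take on erythroid or megakaryocytic features, and HEL is another leukemia line with features of both lineages. The 6 K562 arrays were 2 untreated, 1 with 25 µM and 1 with 50 µM hemin, 1 with 100 nM DAC (decitabine, a DNA methyltransferase inhibitor) and 1 with 5 nM PMA, a phorbol ester that activates protein kinase C. The 3 HEL arrays were 1 of untreated cells, 1 of cells given 20 nM DAC and 1 of cells given 5 nM PMA. PMA was given for 48 h and DAC in 3 pulses of 24 h with harvest at 144 h, and the sources used here do not state the time with hemin. The doses are those of the sample titles, from which the protocol shared by the samples differs for hemin and DAC. The labels name no engineered allele in either line, and all cells grew in the same serum-containing medium. One untreated K562 array is labelled a replicate, but nothing says that both came from separate cultures, so the spread behind the p-values may be technical. In the hemin pair that spread also holds the difference between the doses, and in the comparison of the lines it holds treatment responses that differ between them.

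The proteasome degrades proteins that carry ubiquitin chains. Its barrel-shaped core has outer alpha rings, which gate the entry, and inner beta rings, of which PSMB5, PSMB6 and PSMB7 carry the active sites. The regulatory particle at its ends recognizes ubiquitin, removes it and unfolds the substrate with a ring of PSMC ATPases. The transcription factor NRF1, encoded by NFE2L1, is known to raise subunit genes together when proteasome activity is low, through antioxidant response elements. Erythroid cells rely on the proteasome during maturation, when much of their protein content is removed.

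Since most subunit genes lay higher in the hemin arrays, the bases before the transcription start are shown for the members with the largest log2 differences there, PSMD12 and PSMD1, and with the smallest, PSMD5 and PSMD10, as read on each gene's brightest probe set. Each stretch holds the 250 bases upstream of the start, 5′ to 3′ on the gene's own strand, from RefSeq on GRCh38.p14. Capitals mark TGACNNNGC, the core of the antioxidant response element, on either strand.
PSMD12, chr17:67366578-67366827, minus strand: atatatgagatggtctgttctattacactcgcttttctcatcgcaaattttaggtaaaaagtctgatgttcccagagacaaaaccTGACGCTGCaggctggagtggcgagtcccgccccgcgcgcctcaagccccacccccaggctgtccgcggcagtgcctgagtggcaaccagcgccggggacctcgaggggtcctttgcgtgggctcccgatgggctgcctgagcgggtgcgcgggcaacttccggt
PSMD1, chr2:231056617-231056866, plus strand: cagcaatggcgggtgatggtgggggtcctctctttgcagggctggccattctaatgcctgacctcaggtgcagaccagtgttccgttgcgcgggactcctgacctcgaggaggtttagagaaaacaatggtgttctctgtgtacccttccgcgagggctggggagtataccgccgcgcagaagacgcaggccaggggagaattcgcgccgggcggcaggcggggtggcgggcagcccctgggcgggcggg
PSMD5, chr9:120842923-120843172, minus strand: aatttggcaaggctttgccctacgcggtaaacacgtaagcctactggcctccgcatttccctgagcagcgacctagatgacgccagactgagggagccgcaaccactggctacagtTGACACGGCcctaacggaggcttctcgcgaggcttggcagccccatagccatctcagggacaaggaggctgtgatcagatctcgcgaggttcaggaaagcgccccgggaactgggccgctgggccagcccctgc
PSMD10, chrX:108091543-108091792, minus strand: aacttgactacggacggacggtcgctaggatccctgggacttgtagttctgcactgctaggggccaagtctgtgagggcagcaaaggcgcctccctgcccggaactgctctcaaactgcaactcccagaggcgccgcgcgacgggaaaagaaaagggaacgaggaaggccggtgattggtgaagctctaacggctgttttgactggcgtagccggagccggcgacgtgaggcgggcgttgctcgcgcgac
The core stood 165 bases before the start in PSMD12, the member with a large difference, and 134 bases before it in PSMD5, the member with the smallest. PSMD1 had its only match 39 bases after the start, outside the stretch shown, and PSMD10 had none in the whole window.

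Of the 30 members, 25 had a promoter in the RefSeq table, in a window of 300 bases that ends 50 bases after the start. The others were PSMA7, PSMB1, PSMB6, PSMB7 and PSMD4. TGACNNNGC lay in 7 of these 25 (28.0%), against 13.6% of all 27305 promoters and 14.3% of the 15842 protein-coding ones, and CCGGAAG, an ETS factor motif, in 8 (32.0%) against 10.7% and 14.2%. CCAAT, the box read by NF-Y, lay in 13 (52.0%) against 35.7% and 36.4%, and TGACTCA, an AP-1 motif, in 1 (4.0%) against 4.9% and 3.7%. All were searched on both strands. TGACTCA and TGACNNNGC share their first letters, and 1 member, PSMD9, held matches to both. A match describes the letters only.

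All 30 members passed the minimum of a log2 value of 5 on at least 1 array, as did 10560 genes in all, and each gene was read on its brightest probe set. Values are log2 expression, and a log2 difference of 1 is a doubling. Medians over all probe sets were 6.67 to 6.78 on every array. K562 was checked by its erythroid markers. The embryonic globin gene HBE1 was at 12.64 to 15.17 and KLF1 at 7.0 to 11.84. HEL showed the megakaryocytic marker ITGA2B at 12.65 to 13.29, and untreated K562 at 7.48 and 7.82. Of markers of other cell types, DCN was at the lowest level on all arrays and COL1A1 at 6.13 to 7.80. The T cell gene CD3D was at 8.51 to 12.51 in K562 and at 3.05 to 5.85 in HEL, and CD3E, MS4A1 and COL1A2 were not listed. The untreated K562 arrays differed from each other, with the embryonic globin gene HBZ at 14.71 and 12.05.

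In hemin-treated K562 cells the subunit genes lay higher almost without exception. The mean of the hemin arrays exceeded that of the untreated arrays for 30 of 30 members, by a median log2 difference of 0.53 (range 0.04 to 0.97), against a median of -0.00 and quartiles of -0.32 and 0.26 over all genes tested. More than 1.5-fold higher were 13 members and more than 1.5-fold lower 0, where 8.81% of all genes were that much higher. For 27 members both hemin values exceeded both untreated values, against 21.7% of all genes, and for 26 the order was untreated, 25 µM, 50 µM, against 15.7%. In arrays of whole cell populations, more cells of a state and more RNA per cell cannot be told apart. With limma, taking both doses as 1 group of 2 arrays, 0 of 30 members passed an adjusted p of 0.05, as did 0% of all genes, with a lowest adjusted p of 0.434 for members. At an unadjusted p under 0.05 there were 16 members, against 10.9% of all genes. Leaving out 1 of these arrays gave 9 members over 1.5-fold higher without the 50 µM array, 11 without untreated replicate 2, 15 without untreated replicate 1 and 17 without the 25 µM array.

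**Figure D1:**
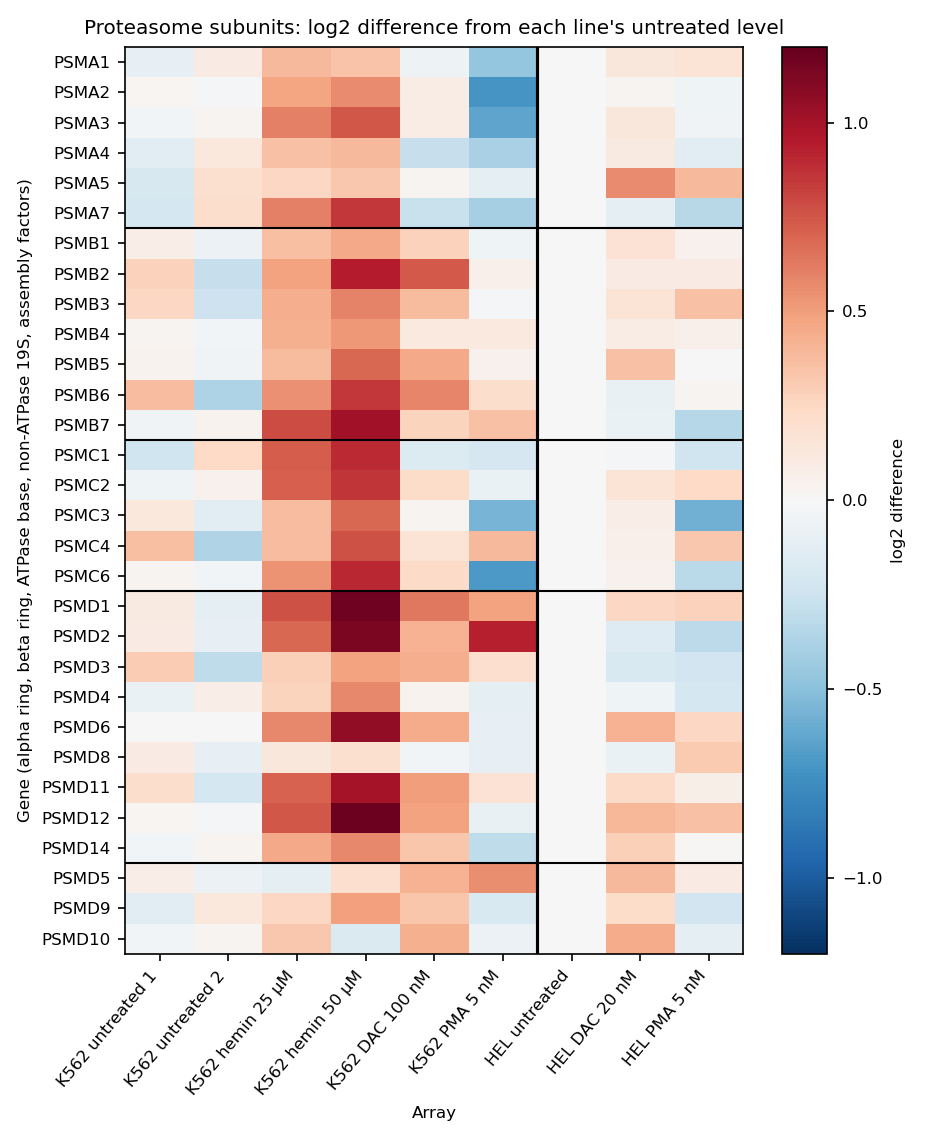
Log2 difference of the 30 proteasome subunit genes (vertical axis, grouped by subcomplex) on each of the 9 arrays (horizontal axis) from the untreated level of its own line, which is the mean of 2 arrays in K562 and 1 array in HEL. Red is higher and blue lower. The hemin columns are red in nearly every row, with a range of -0.17 to 1.18 at 50 µM, and the PMA column of K562 is mixed, with a range of -0.71 to 0.93.

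The alpha ring, which forms the gate of the core, had a median of 0.44 over 6 genes, with 2 over 1.5-fold higher, and a median of 0.71 when all probe sets of a gene were averaged. PSMA7 was at 11.75 and 12.18 untreated, at 12.57 with 25 µM and at 12.81 with 50 µM (log2 difference 0.72, standard error 0.22, adjusted p = 0.455 from limma). PSMA3 was at 11.91 and 11.98, then 12.55 and 12.69 (0.68, standard error 0.11, adjusted p = 0.434). For both genes the hemin arrays lay above the untreated arrays without overlap. PSMA5 went from 12.19 and 12.57 to 12.63 and 12.70, a log2 difference of 0.29 that was the smallest of the ring on the brightest probe sets. Its average over all probe sets, 1.08, includes a dimmer one at 3.17 and 4.13 untreated. That probe set reached the minimum of 5 only on the hemin arrays, and it also enters the averaged median of 0.71. PSMA1 was the member of the ring whose value at 50 µM, 13.55, was under that at 25 µM, 13.60.

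In the beta ring all 7 genes lay higher at both doses, each with 50 µM above 25 µM, and the median was 0.53. PSMB7, the trypsin-like catalytic subunit, went from 12.47 and 12.56 to 13.30 and 13.52 (log2 difference 0.90, standard error 0.13, adjusted p = 0.434 from limma). PSMB6, the caspase-like catalytic subunit, was at 11.74 and 11.00 untreated and at 11.92 and 12.22 with hemin. PSMB5, the chymotrypsin-like catalytic subunit and target of the drug bortezomib, went from 11.06 and 10.98 to 11.40 and 11.71. The untreated values of PSMB6 differed by more than its 25 µM value exceeded the higher of them, whereas those of PSMB5 and PSMB7 lay close together. PSMB2, a noncatalytic subunit, was at 12.15 and 11.60, then 12.36 and 12.82 (log2 difference 0.71), and the untreated arrays again differed by 0.55.

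The ATPases that unfold substrates had a median of 0.71, and all 5 were higher by 0.53 to 0.81. Averaged over all probe sets the median was 0.57. PSMC1 was at 11.48 and 11.95 untreated, 12.44 at 25 µM and 12.61 at 50 µM. PSMC2 was at 12.65 and 12.75, then 13.42 and 13.56 (log2 difference 0.79, standard error 0.11, adjusted p = 0.434 from limma). PSMC6 went from 12.82 and 12.76 to 13.33 and 13.69. On the brightest probe sets these ATPases showed no overlap between hemin and untreated arrays. PSMC2 had the lowest unadjusted p among members there, 0.00549 from limma. Its dimmer probe sets differed by 0.29 and 0.19, and both overlapped. One was at 8.52 and 9.07 untreated, then 9.05 and 9.12, the other at 6.68 and 6.86, then 6.82 and 7.10. PSMC3 and PSMC4 had log2 differences of 0.53 and 0.57.

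The non-ATPase subunits of the regulatory particle had a median of 0.82 over 9 genes, with 5 over 1.5-fold higher. Averaged over all probe sets it was 0.69. The alpha ring median in that setting includes a PSMA5 probe set that reached 5 only on the hemin arrays. The subcomplexes are therefore not ranked there. PSMD12, a scaffold subunit of the lid, was at 11.44 and 11.39 untreated, at 12.16 with 25 µM and at 12.59 with 50 µM (log2 difference 0.97, standard error 0.20, adjusted p = 0.434 from limma). PSMD1, a large scaffold of the base, was at 11.35 and 11.13, then 12.00 and 12.41 (0.97, standard error 0.21, adjusted p = 0.434). PSMD2, the other large scaffold, which docks ubiquitin shuttle proteins, was at 10.39 and 10.19, then 10.98 and 11.42 (0.91). On these brightest probe sets the 50 µM array of each gene was more than 2-fold above the untreated mean. A dimmer PSMD12 probe set differed less, by 0.28 at 25 µM and 0.55 at 50 µM. A dimmer one of PSMD1 differed by 1.13 and 1.42. The lid subunits PSMD11 and PSMD6 differed by 0.85 and 0.82. PSMD11 went from 11.74 and 11.31 to 12.23 and 12.52, and PSMD6 from 11.88 and 11.87 to 12.45 and 12.94. PSMD14, the enzyme that cuts ubiquitin chains off substrates, went from 12.26 and 12.33 to 12.75 and 12.87. The ubiquitin receptor PSMD4 differed by 0.43, PSMD3 by 0.39 and PSMD8 by 0.17. PSMD3 was at 10.47 and 9.87 untreated and at 10.46 at 25 µM, so its groups overlapped.

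PSMD5, PSMD9 and PSMD10, which chaperone the assembly of the base and leave the finished particle, stood lowest with a median of 0.08. PSMD5 was at 11.13 and 10.98 untreated, 10.94 at 25 µM and 11.26 at 50 µM, a log2 difference of 0.04 that turned to -0.37 when all its probe sets were averaged, to -0.03 without untreated replicate 2 and to -0.11 without the 50 µM array. PSMD10, also known as gankyrin, was at 11.53 and 11.59, then 11.88 and 11.39, and its 0.08 turned to -0.17 without the 25 µM array. For both genes the arrays overlapped and the direction was not settled. PSMD9 was at 10.29 and 10.55, then 10.67 and 10.91 (log2 difference 0.37). Without these assembly factors, the 27 structural subunits had a median of 0.57, and 26 of them showed no overlap.

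By dose, the median over members was 0.44 at 25 µM, with 9 over 1.5-fold higher against 7.50% of all genes, and 0.69 at 50 µM, with 17 against 14.4%. The untreated arrays are shared by both doses. The 50 µM value exceeded the 25 µM value for 28 members, by a median of 0.23 over all 30. Over all genes it did so for 4657 of 10560, with a median of -0.00. Between the doses 0 members differed by over 1.5-fold, against 23.0% of all genes. Among members, the exceptions to the order of the doses were PSMA1 with -0.05 and PSMD10 with -0.49. By subcomplex, the medians at 50 µM were 0.48 for the alpha ring, 0.69 for the beta ring, 0.86 for the ATPases, 1.0 for the non-ATPase subunits and 0.20 for the assembly factors. Each dose is 1 array, so the difference between doses has no replicate check.

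**Figure D2:**
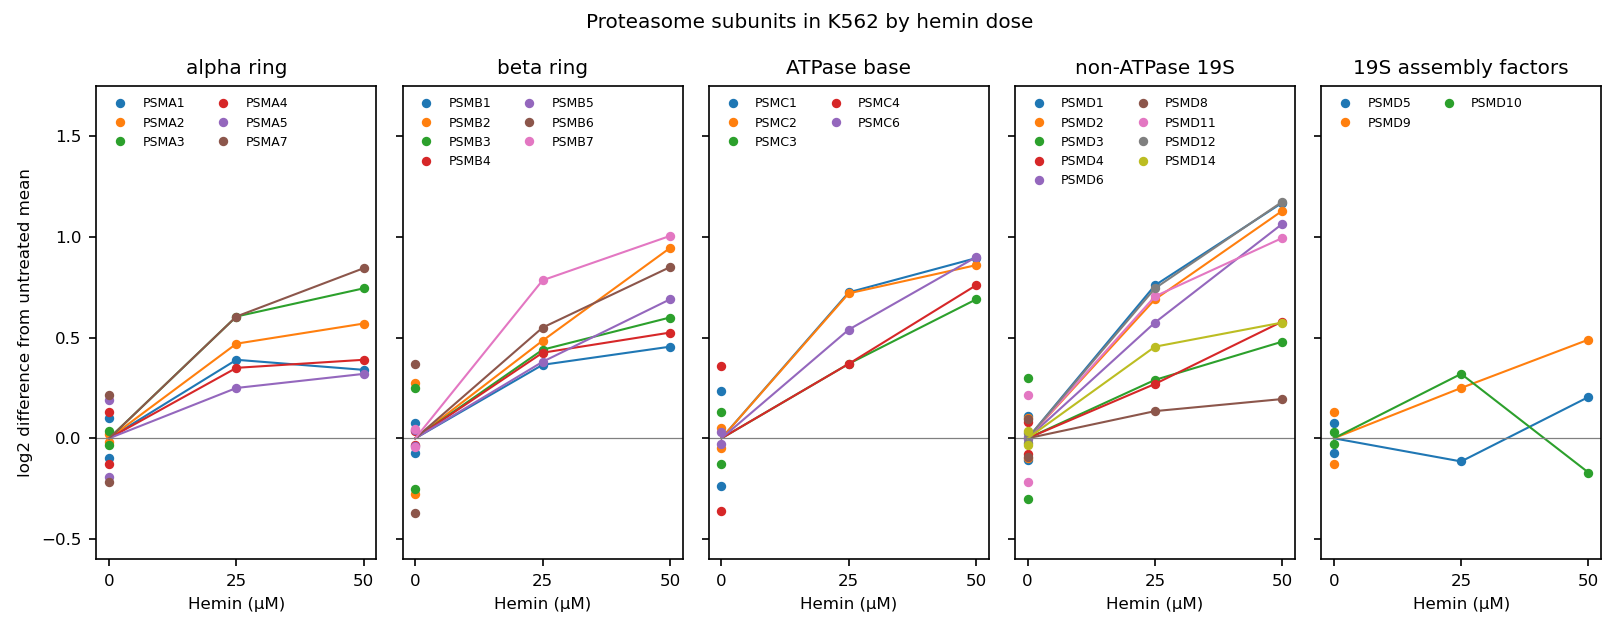
Log2 difference from the K562 untreated mean of 2 arrays (vertical axis) against the hemin dose in µM (horizontal axis), 1 panel per subcomplex and 1 colour per gene. The points at 0 are the 2 untreated arrays and the lines join the untreated mean with the single arrays at 25 and 50 µM. The lines of the non-ATPase subunits end highest, at up to 1.18, while PSMD10 ends at -0.17.

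The untreated arrays set the scale for these differences. Replicate 2 against replicate 1 had a median log2 difference of -0.06 over members, from -0.74 for PSMB6 to 0.47 for PSMC1. Over 1.5-fold apart were 3 members, all lower in replicate 2, against 23.5% of all genes in either direction. These were PSMB6 with -0.74, PSMC4 with -0.72 and PSMD3 with -0.61. The median standard deviation between the untreated arrays over members was 0.137. The summed level of the 6 erythroid markers differed as well, at a log2 value of 15.92 and 14.64 untreated, 16.54 at 25 µM and 16.96 at 50 µM, with 3 of 6 higher in both hemin arrays without overlap. HBZ and HBE1 make up most of that sum, and GATA1 lay lower without overlap, at 10.42 and 9.72 untreated and 9.19 and 9.47 with hemin. That of the megakaryocytic markers was 7.79 and 8.04 untreated, then 6.55 and 5.35. The part of these shifts in the result for the subunits was not tested.

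Of the other genes of the pathway in the lists below, 0 passed the adjusted threshold of limma with hemin. Of the 7 genes of proteins that ride on the regulatory particle, 2 were over 1.5-fold higher, against 8.81% of all genes, and 1 had an unadjusted p under 0.05, against 10.9%. USP14, a deubiquitinase bound to the particle, was at 10.47 and 10.57 untreated, 11.05 at 25 µM and 11.87 at 50 µM (log2 difference 0.94, adjusted p = 0.478), and the thioredoxin-like TXNL1 differed by 0.65. Of 7 shuttle and segregase genes 1 was over 1.5-fold higher, RAD23B, which carries ubiquitinated proteins to the proteasome, from 12.21 and 12.55 to 12.87 and 13.18. Among 6 further assembly genes (PSMG1 to PSMG4, POMP and PAAF1), 4 activators and inhibitors, and 3 of ubiquitin and its activating enzymes, 0 differed by over 1.5-fold. Their medians were 0.31, 0.27 and -0.04. NFE2L1, which encodes NRF1, was at 10.38 and 10.04 untreated, 10.01 at 25 µM and 9.0 at 50 µM (-0.71, adjusted p = 0.571), and NGLY1, which is needed to activate NRF1, differed by 0.25. The 7 genes of the cytosolic chaperonin CCT, another large ring complex, differed by 0.12 to 0.34 with 0 over 1.5-fold, so the median of 0.25 was smaller than that of the subunits, a difference that was not tested.

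PMA, which drives K562 toward megakaryocytic features, gave no shared direction on the brightest probe sets, where 11 of 30 members lay above the untreated mean. The median over members was -0.08, with a range of -0.71 to 0.93, against a median of -0.04 over all genes. With all kept probe sets of a gene averaged, 8 members lay above the untreated mean and the median was -0.192. Over 1.5-fold higher was 1 member, against 24.9% of all genes, and over 1.5-fold lower were 3, against 28.2%. With limma 0 of 30 members passed the adjusted threshold, against 13.4% of all genes, and 5 had an unadjusted p under 0.05, against 34.6%. The lowest adjusted p was 0.0559 for PSMA2, which was called (adjusted p = 0.0442) with no filter on dim probe sets and (adjusted p = 0.0449) with an intensity trend. PMA and DAC have 1 array each in K562, whose spread the fit takes to be that of the untreated and hemin pairs. Without untreated replicate 1, 3 members were over 1.5-fold higher and 4 lower.

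The alpha ring lay on one side, with 6 of 6 genes below the untreated mean and a median of -0.43. PSMA2 was at 12.77 and 12.73 untreated and at 12.04 with PMA (log2 difference -0.71, standard error 0.11, adjusted p = 0.0559 from limma). PSMA3 was at 11.91 and 11.98, then 11.31 (-0.63, adjusted p = 0.077). The ATPase gene PSMC6 was at 12.82 and 12.76, then 12.10 (-0.69, adjusted p = 0.136). PSMD2 lay the other way, at 10.39 and 10.19 untreated and 11.22 with PMA (0.93, standard error 0.26, adjusted p = 0.123 from limma). Both lay outside the untreated values, on opposite sides. The beta ring had a median of 0.06, with PSMB5 at 11.07, PSMB6 at 11.58 and PSMB7 at 12.87 in the PMA array.

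In HEL cells with PMA the median was 0.02 and the range -0.57 to 0.39, with 0 members over 1.5-fold in either direction, against 31.0% of all genes. PSMA2 was at 12.02 untreated and 11.97 with PMA, PSMA3 at 11.77 and 11.73, and PSMD2 at 11.00 and 10.69. PSMC3, an ATPase, was the lowest, at 10.98 untreated and 10.40 with PMA, and in K562 it was at 11.40 and 11.14 untreated and 10.71 with PMA. In the fit of PMA over both lines its log2 difference was -0.57 (standard error 0.23, adjusted p = 0.218 from limma). That fit called 0 members, against 0.312% of all genes, and PSMC3 was the 1 member with an unadjusted p under 0.05, against 22.8% of all genes. The difference between the lines in the PMA response, tested in limma over all 9 arrays, was called for 281 genes but 0 members, with a lowest adjusted p of 0.189 among them. A p that misses the threshold does not show that the lines responded alike.

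Most of the 6 further genes for proteasome assembly lay lower in the single PMA array of K562. Over 1.5-fold lower were 5, against 28.2% of all genes, and 2 were called lower, against 6.96%. These calls take the spread of 1 array from the untreated and hemin pairs, and leaving out any array of these pairs left 0 genes of the whole table past the threshold, with lowest adjusted p-values of 0.0942 to 0.115. PSMG1, a chaperone of the alpha ring, was at 13.02 and 13.04 untreated and fell to 10.93 (adjusted p = 0.0174 from limma), and PSMG4 fell from 12.26 and 12.49 to 9.74 (adjusted p = 0.021). Of the 7 CCT genes 6 were over 1.5-fold lower and 3 passed, with CCT5 at 13.05 and 13.15 untreated and 11.81 with PMA (adjusted p = 0.0312). UCHL5, a deubiquitinase of the particle, fell by 1.35 on the log2 scale (adjusted p = 0.0474), and UBQLN1, a ubiquitin shuttle, fell by 0.97 (adjusted p = 0.0376). Others of these lists lay over 1.5-fold higher without passing. They were the segregase genes VCP (log2 difference 1.15) and NPLOC4 (1.14), the shuttle UBQLN2 (0.72) and the ubiquitin receptor ADRM1 (0.94), as were the ubiquitin-activating enzyme UBA1 (1.44) and the activator PSME1 (0.84). In HEL 1 of the 6 assembly genes was over 1.5-fold higher and 1 lower, against 31.0% of all genes in either direction. PSMG1 was at 13.41 untreated and 13.27 with PMA, PSMG4 at 9.83 and 8.87, and POMP at 12.36 and 13.47. POMP was the assembly gene above the untreated mean in K562, by 0.21. The summed level of the megakaryocytic markers was 7.79 and 8.04 untreated and 13.0 with PMA in K562, where ITGB3 passed the test and PF4 stayed at the lowest level, and their part in these values was not tested.

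**Figure D3:**
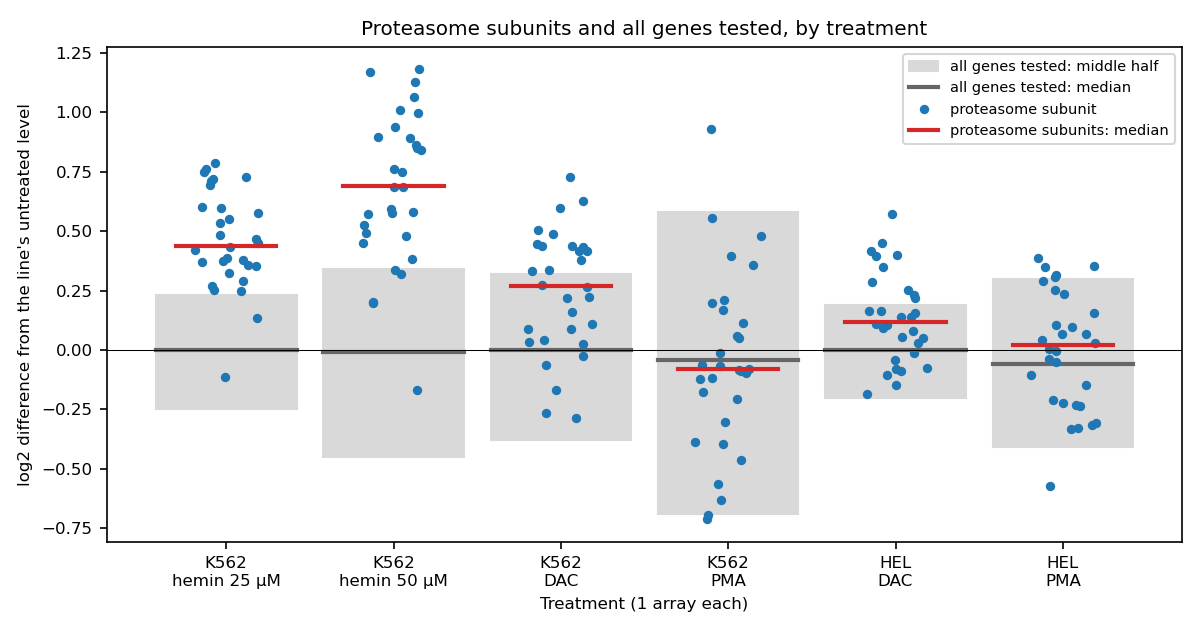
Log2 difference of the 30 subunit genes (blue points) from the untreated level of their line (vertical axis) for the 6 treated arrays (horizontal axis). Red bars are medians over the subunits, dark grey bars medians over all 10560 genes tested and light grey boxes the quartile range of these genes. The red bar lies at 0.44 and 0.69 with hemin, above the grey boxes, and at -0.08 with PMA in K562, inside the box.

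With DAC, 25 of 30 members lay above the untreated mean in K562, by a median of 0.27, against -0.00 over all genes. Over 1.5-fold higher were 3 members, against 14.3% of all genes, and 0 were lower, against 16.8%. PSMB2 was at 12.15 and 11.60 untreated and 12.61 with DAC (log2 difference 0.73), PSMD1 at 11.35 and 11.13, then 11.87 (0.63), and PSMB6 at 11.74 and 11.00, then 11.96 (0.60). All 7 genes of the beta ring lay above the untreated mean, with PSMB5 at 11.47 and PSMB7 at 12.78, whereas the alpha ring divided into 3 above and 3 below. With limma 0 members passed the adjusted threshold, as did 0% of all genes, and 0 members had an unadjusted p under 0.05, against 11.2%. The count over 1.5-fold rests on the untreated arrays, with 6 members without replicate 1 and 0 without replicate 2. The erythroid markers stood at a summed log2 value of 17.04 with DAC, above 15.92 and 14.64, and their part was not tested.

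In HEL, at the lower dose of 20 nM, the median was 0.12 and the range -0.18 to 0.57, and 0 members differed by over 1.5-fold, against 11.2% of all genes. The highest was PSMA5, at 10.59 untreated and 11.16 with DAC, followed by PSMD10 at 10.48 and 10.93. The assembly factors all lay higher, by 0.22 to 0.45, and by 0.33 to 0.43 in K562 at 100 nM. The doses differ between the lines, and each rests on 1 DAC array.

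About as large a share of the members as of all genes differed between K562 and HEL. In an additive fit of line and treatment over 7 arrays without hemin, limma called 9 members higher in K562, against 19.7% of all genes, and 1 lower, against 16.3%. The median over members was 0.28 (K562 minus HEL), against 0.09 over all genes. All 3 assembly factors were among those higher in K562. PSMD5 was at 10.98 to 11.61 in the 4 K562 arrays of this fit and at 9.18, 9.57 and 9.28 in untreated, DAC-treated and PMA-treated HEL cells (log2 difference 2.02, standard error 0.20, adjusted p = 0.00133 from limma). PSMD9 was at 10.24 to 10.75 in K562 and 9.24, 9.46 and 9.01 in HEL (1.23, adjusted p = 0.00611). PSMD10 was at 11.49 to 11.99 in K562 and 10.48, 10.93 and 10.37 in HEL (1.09, adjusted p = 0.00758). No HEL array reached the K562 arrays for any of them.

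Among the core subunits, PSMA5 was at 12.19 to 12.57 in K562 and 10.59, 11.16 and 10.98 in HEL (log2 difference 1.47, standard error 0.23, adjusted p = 0.00622 from limma). PSMA7 was the member called lower, at 11.57 to 12.18 in these K562 arrays and 12.89, 12.78 and 12.56 in HEL (-0.99, adjusted p = 0.0167). The hemin arrays, at 12.57 and 12.81, came within the HEL values of PSMA7. The catalytic subunit PSMB7 was at 12.47 to 12.87 in K562 and 12.02, 11.94 and 11.68 in HEL (0.81, adjusted p = 0.036), and PSMB5 at 10.98 to 11.47 in K562 and 10.42, 10.77 and 10.42 in HEL (0.65, adjusted p = 0.0398). PSMB6, the remaining catalytic subunit, did not pass, with 11.45, 11.36 and 11.48 in HEL (0.18, adjusted p = 0.636). In the alpha ring, then, PSMA5 and PSMA7 differed between the lines in opposite directions.

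In the regulatory particle 3 structural members passed. PSMC2 was at 12.62 to 12.92 in K562 and 11.71, 11.87 and 11.95 in HEL (log2 difference 0.91, adjusted p = 0.0173 from limma). PSMC1 was at 11.48 to 11.95 in K562 and 10.89, 10.87 and 10.65 in HEL (0.79, adjusted p = 0.0358), and PSMD12 at 11.33 to 11.90 in K562 and 10.44, 10.84 and 10.79 in HEL (0.87, adjusted p = 0.0233). None of these overlapped between lines. PSMC2 and PSMD12 no longer passed when all their probe sets were averaged (0.40 and 0.61).

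The number of members called depended on single arrays. It was 2 (PSMD5 and PSMD9) without the untreated HEL array, 4 without the DAC array of either line or without untreated K562 replicate 1, 6 without untreated replicate 2, and 11 without the PMA array of either line. Over all genes the share called moved with it, from 18.2% to 36.55%. PSMD5 and PSMD9 passed in each of these fits. The megakaryocytic markers summed to 13.02 to 14.52 in HEL and to 5.35 to 8.04 in the K562 arrays other than PMA, the hemin arrays included, and CD3D differed between the lines as given above. Their part in the line differences was not tested.

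**Figure D4:**
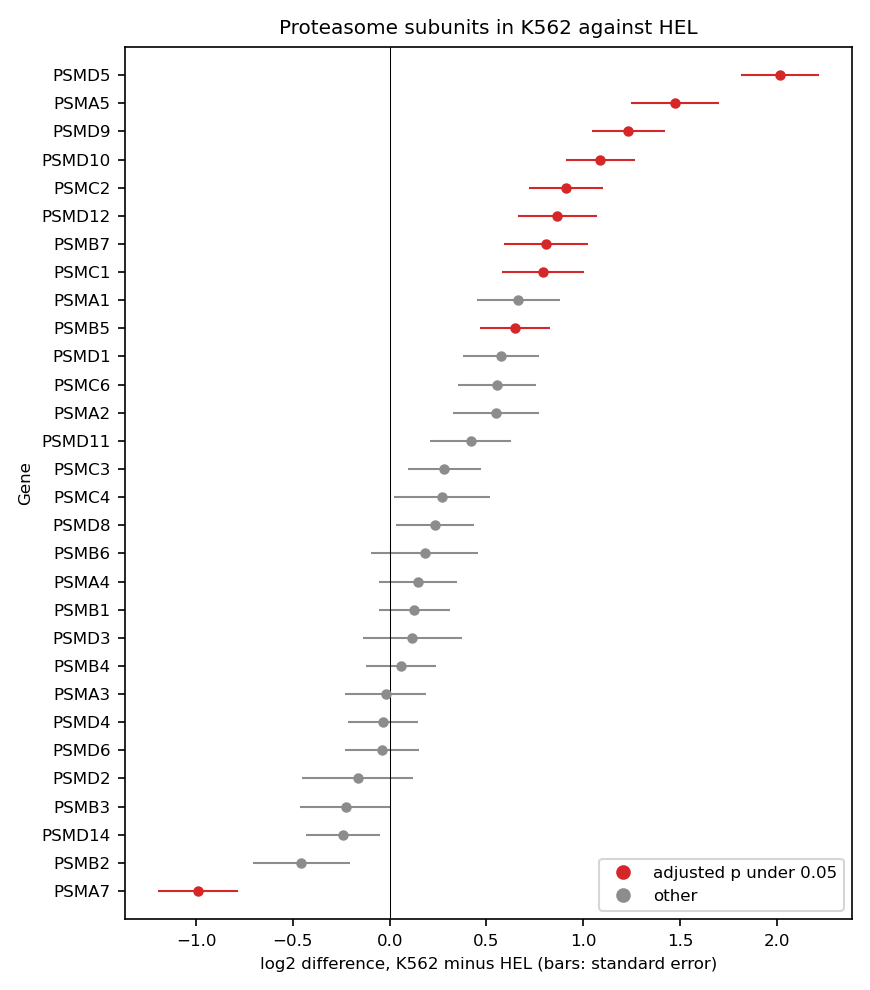
Log2 difference of each subunit gene between K562 and HEL (horizontal axis, K562 minus HEL, bars are standard errors from limma) with genes in order of the difference (vertical axis). Red points passed an adjusted p of 0.05. PSMD5 lies farthest to the right at 2.02 and PSMA7 farthest to the left at -0.99.

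The immunoproteasome genes, whose products can replace the catalytic subunits in immune cells, were set beside them. PSMB8, the counterpart of PSMB5, was at the lowest level of the arrays, 2.25 to 2.31, in all K562 arrays and at 10.16, 9.65 and 10.29 in untreated, DAC-treated and PMA-treated HEL cells. PSMB9, the counterpart of PSMB6, was at 3.03 to 5.47 in K562 and at 10.39, 9.69 and 9.35 in HEL. K562 values of both lie around or under the minimum of 5, and both genes passed the filter through HEL (PSMB9 also through the DAC and PMA arrays of K562), so no fold and no test are given. PSMB10, the counterpart of PSMB7, was expressed in both lines, at 7.44 to 9.72 in K562 and 8.21 to 9.22 in HEL. With PMA it rose in K562 from 7.44 and 7.80 to 9.72 (log2 difference 2.10, adjusted p = 0.0463 from limma, lost as above without an untreated or hemin array), and in HEL it was at 8.35 untreated and 9.22 with PMA. PSMB7 itself was at 12.87 in the PMA array of K562. With hemin PSMB10 was at 7.68 and 8.09 and PSMB8 stayed at the lowest level, while PSMB5, PSMB6 and PSMB7 lay higher at both doses.

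**Figure D5:**
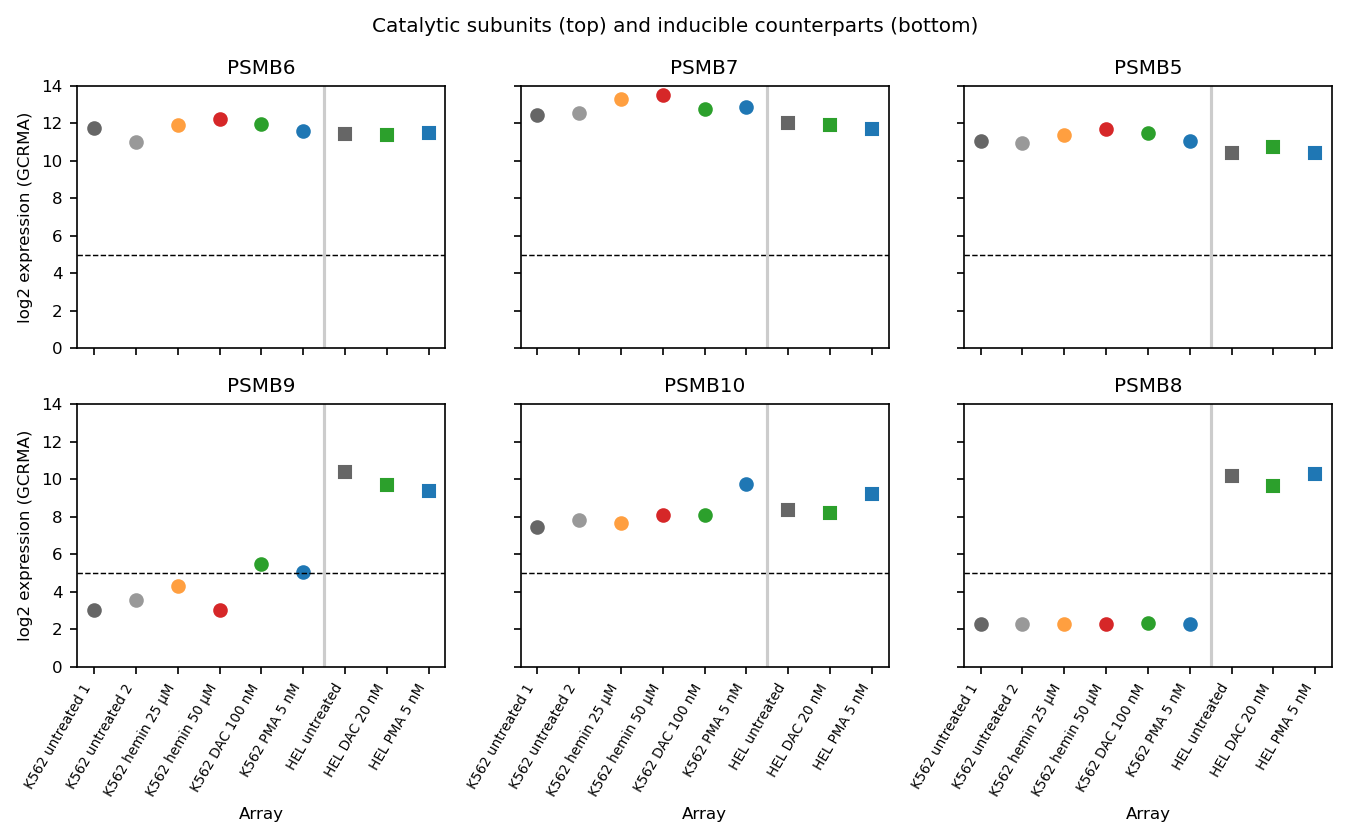
Log2 expression (vertical axis) of the catalytic subunit genes PSMB6, PSMB7 and PSMB5 (top) and of their immunoproteasome counterparts PSMB9, PSMB10 and PSMB8 (bottom) on the 9 arrays (horizontal axis), with circles for K562, squares for HEL and a dashed line at the minimum of 5. PSMB8 is at 2.25 to 2.31 in K562 and at 9.65 to 10.29 in HEL. Levels of different genes are not comparable between panels.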

How the data were processed

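The authors deposited log2 expression values per probe set from Affymetrix arrays, made with GCRMA (version not given in the sources used here), which corrects background and equalizes the arrays, so a change common to most genes is not visible. Of 27306 probe sets, the platform annotation gave 1 gene for 22858, several for 1164 and none for 3284. Genes were read on the brightest probe set with a log2 value of at least 5 on 1 of the 9 arrays (10560 genes). Differences were tested with limma 3.58.1 (lmFit and eBayes) in R 4.3.3, with Benjamini-Hochberg adjustment over all these genes at 0.05, in the 6 K562 arrays as 4 groups (2 residual degrees of freedom) and in 7 arrays with line and treatment as terms (3). HEL treatments have 1 array a group and no test. The fits were run on simulated data with independent noise, checked by whether the median estimate lay near the planted difference. The PMA and DAC comparisons within K562 were not simulated, and the run says nothing of their p-values. The members, the gene lists and the motifs were chosen with earlier results of these data known. Genes named with values were members over 1.5-fold or past the threshold, the catalytic subunits, the extremes of each subcomplex and, of other lists, up to 4 genes with the largest differences and PSMB8, PSMB9 and PSMB10. Alternatives were another normalization, centring, filters, probe set rules, an intensity trend, other sets of arrays and, for counts, fold cutoffs of 1.25 and 2. Single arrays were also left out in turn. In the fit of both lines this was each of the 7, in the K562 fit only untreated and hemin arrays. Precision is limited by the number of arrays.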

Additional observations from a re-analysis of the deposited data

How the results depend on the processing

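Of the results recomputed under the alternatives, 853 values stayed alike, 36 no longer passed a threshold, 45 moved by more than the spread or 1.5 times, and 4 reversed. A median was alike within the spread of 0.137 and a count within 1.5 times. A member's difference was alike if it kept its direction and side of the threshold. With hemin 0 members passed in any setting, so there only the direction could change. With 1 array left out, the median over members with hemin was 0.442 to 0.687 (0.53 with all arrays), and the members called between K562 and HEL were 2 to 11 (10). The log2 difference with hemin ranged from -0.114 to 0.204 for PSMD5 and from -0.169 to 0.325 for PSMD10, with reversals to -0.031 and -0.114 for PSMD5 and to -0.169 for PSMD10, and it was -0.371 for PSMD5 with the mean of all kept probe sets. That setting moved the median over members with PMA in both lines from 0.05 to -0.154. With PMA in K562, 1 member was called with no filter and 1 with an intensity trend (0 otherwise). The cause was not tested, beyond the fewer arrays. No paired analysis was possible because the labels number no arrays across groups, and the hemin pair are 2 doses. Signal near the lowest level carries no order.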

Other observations

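Of 53 probe sets of the members, 49 reached the minimum of 5 on at least 1 array and 47 did so on all 9, and for 47 of these 47 the hemin mean lay above the untreated mean. The rule of all 9 arrays includes the hemin arrays. It left out a PSMA5 probe set that lay higher with hemin (1.87) and a PSMD5 probe set that lay lower (-0.79). The latter was the only kept probe set that lay lower. For the 14 members with several kept probe sets, the log2 differences with hemin on different probe sets of a gene lay a median of 0.33 apart. The gap was largest for PSMA5 (1.58), whose dimmer probe set was at 3.17 and 4.13 untreated and 5.50 and 5.55 with hemin, under the minimum on the other arrays. In PSMB2 (0.97) a dim probe set went from 6.79 and 5.35 to 7.15 and 7.61. In PSMD5 (0.83) the dimmer probe set was at 5.16 and 5.88 untreated, 5.73 at 25 µM and 3.74 at 50 µM.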
